A study of Mus musculus with 14 samples.

Results

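The genes described here are Srf, a DNA-binding factor of muscle and cytoskeletal genes, its coactivators Mkl1 and Mkl2, and 7 genes known as targets of this pathway, namely Ctgf, Cyr61, Ankrd1, Tagln, Cnn1, Cnn2 and Vcl. They were taken by gene symbol, under a rule that uses no measured value, although earlier results of these data were known when they were chosen. They make up 10 of the 24016 transcripts in the expression table, which keeps 1 RefSeq transcript per gene. A transcript was called expressed when its mean over the libraries was at least 1, which held for 14312 transcripts and for 9 of the 10 genes. Cnn1 was the exception.

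RNA was measured in C2C12 cells, a single established line of mouse myoblasts that fuse into myotubes once the growth medium is replaced by one with little serum. The cells received either control siRNA (siCtrl) or a pool of siRNAs against Klf5 (siKlf5), a zinc-finger transcription factor, and poly(A) RNA was sequenced on days 0, 1, 2 and 3 of differentiation. There was 1 library per siRNA and day, 8 in all, so no condition has a replicate error, and a difference on a single day carries no test. Values are the deposited FPKM, which the authors scaled to a total of 10000000 reads, and they therefore exceed FPKM as it is usually defined. They are given per kilobase of exon and may be compared between genes within 1 limit, that at most 3 reads were kept per position. Ankrd1, the most densely covered of the genes, held 1.55 to 4.29 reads per exon base, and Ctgf 0.0706 to 0.349. The part of this limit in the levels was not tested.

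Klf5 itself was lower in the siKlf5 library on every day, at 15.7, 41.9, 31.3 and 22.7% of its siCtrl value on days 0, 1, 2 and 3. The libraries held between 7850495 and 20301495 reads on exons, and on day 2 the siCtrl library was the deepest of the 8. All 6 markers of the skeletal muscle line (Myod1, Myog, Myf5, Des, Myh3 and Ckm) were above 1 in every library, with a summed value of 2754 to 8944 in siCtrl and 2288 to 8012 in siKlf5 cells. Because whole cultures were measured, fewer cells of one kind and less RNA per cell cannot be told apart.

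Srf binds DNA as a dimer at the CArG box and acts with one of several partners. Mkl1 and Mkl2, also named Mrtfa and Mrtfb, bind monomeric actin. When actin is drawn into filaments they are released, enter the nucleus and bring Srf to genes of the actin cytoskeleton. In skeletal muscle this pathway serves myoblast fusion and the building of sarcomeres. The secreted proteins Ctgf and Cyr61 and the ankyrin-repeat protein Ankrd1 are known targets of Srf, and also of Yap together with the Tead factors, which bind the sequence CATTCC.

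Promoter sequences from RefSeq (mouse build GRCm38.p6, which is not the mm9 build of the expression table) were matched for 8 of the 10 genes, by the newer symbol for Cyr61 (Ccn1), Mkl1 (2 start sites) and Mkl2 (3 start sites). Ctgf and Tagln had no matching entry. A CArG box, which begins with CC, ends with GG and holds only A or T in between, lay within 250 bases before to 50 bases after the start of 3 of the 8 genes, Srf, Cnn2 and Vcl. It was found in 1.63% of all 32851 promoters of that length and, counted by gene as for the 8, in 1.81% of 27025 genes. The 3 stretches are shown because they carry this motif, which is in capitals and reads on both strands. Each is 120 bases long and is written 5′ to 3′ on the strand of the gene. The Srf stretch spans chr17:46556163-46556282 (minus strand), the Cnn2 stretch chr10:79988480-79988599 (plus strand) and the Vcl stretch chr14:20929148-20929267 (plus strand).
Srf: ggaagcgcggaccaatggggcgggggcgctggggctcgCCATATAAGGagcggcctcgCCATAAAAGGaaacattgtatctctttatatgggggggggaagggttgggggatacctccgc
Cnn2: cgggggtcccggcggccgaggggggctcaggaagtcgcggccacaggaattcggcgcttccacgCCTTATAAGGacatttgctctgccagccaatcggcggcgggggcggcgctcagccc
Vcl: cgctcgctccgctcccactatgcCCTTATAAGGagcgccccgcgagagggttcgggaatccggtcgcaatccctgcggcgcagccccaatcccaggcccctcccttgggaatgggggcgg

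The Srf promoter held 2 CArG boxes, starting 82 and 62 bases before its own start site, and the boxes of Cnn2 and Vcl began 56 and 227 bases before the start. The same 10 letters, CCTTATAAGG, made up the box in Cnn2 and in Vcl. With 1 of the central bases left free, Mkl1 joined them, giving 4 of 8 genes beside 11.3% of all genes (9.98% of promoters). The Tead core CATTCC, searched on both strands, was in the promoters of 4 of the 8 genes (Mkl2, Cyr61, Ankrd1 and Vcl). In Mkl2 it was at only 1 of the 3 start sites. It was in 16.6% of all genes (14.7% of promoters). The Cyr61 and Ankrd1 stretches are shown for that motif, in capitals, and span chr3:145649986-145650105 and chr19:36119945-36120064 (both minus strand).
Cyr61: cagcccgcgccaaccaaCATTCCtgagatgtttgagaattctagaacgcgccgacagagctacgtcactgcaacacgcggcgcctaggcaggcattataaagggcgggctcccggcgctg
Ankrd1: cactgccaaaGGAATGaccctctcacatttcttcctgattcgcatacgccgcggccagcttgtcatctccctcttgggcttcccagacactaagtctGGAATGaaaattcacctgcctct

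The core CCGCCC, which Klf and Sp factors can bind, was in the promoters of 5 of the 8 genes (Srf, Mkl2, Cyr61, Cnn2 and Vcl). It was in 38.2% of all genes (35.7% of promoters). These matches describe the letters in a short window and are not binding sites measured here.

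The 10 genes differed widely in level. Ankrd1 was the highest, with a mean of 1492 over the 8 libraries, above 98.9% of expressed transcripts. The actin-binding protein Cnn2 (792) and Vcl (728), which links integrin adhesions to actin, came next, followed by Cyr61 (459.7). Tagln, Srf and Mkl1 lay close together at 192, 189 and 155, and Ctgf (75.02) and Mkl2 (54.4) were near the middle of all expressed transcripts. Cnn1, the calponin of smooth muscle, lay between 0 and 1.98 and rested on 0 to 7 reads. The 3 libraries that listed it at 0 allow a value of up to 4.44 to 7.10, taking 3 counting units of 6 reads as the limit, and no ratio is given for it.

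In the GENCODE annotation of the mm9 assembly all 10 genes are protein-coding. Srf lies on chromosome 17 at 46683788 to 46693111 (NM_020493, minus strand), Mkl1 on chromosome 15 at 80842711 to 81021187 (NM_001082536, minus) and Mkl2 on chromosome 16 at 13256574 to 13417622 (NM_001122667, plus). Ctgf is on chromosome 10 at 24315248 to 24318488 (NM_010217, plus), Cyr61 on chromosome 3 at 145309935 to 145312949 (NM_010516, minus) and Ankrd1 on chromosome 19 at 36186455 to 36194334 (NM_013468, minus). Tagln is on chromosome 9 at 45737711 to 45744141 (NM_011526, minus) and Cnn1 on the same chromosome at 21903697 to 21913665 (NM_009922, plus). Cnn2 lies on chromosome 10 at 79451345 to 79458145 (NM_007725, plus) and Vcl on chromosome 14 at 21748655 to 21852895 (NM_009502, plus). Reads of both strands were counted. Exons of Vcl share 2087 bases with those of Ap3m1 on the opposite strand, whose own value was 96.9 to 165, and the exons of Ctgf share 570 bases with Gm15270. The shared stretches were 162 bases or less for Mkl2, Tagln and Mkl1 and absent for the other 5 genes. The part of this overlap in the values was not tested.

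**Figure D1:**
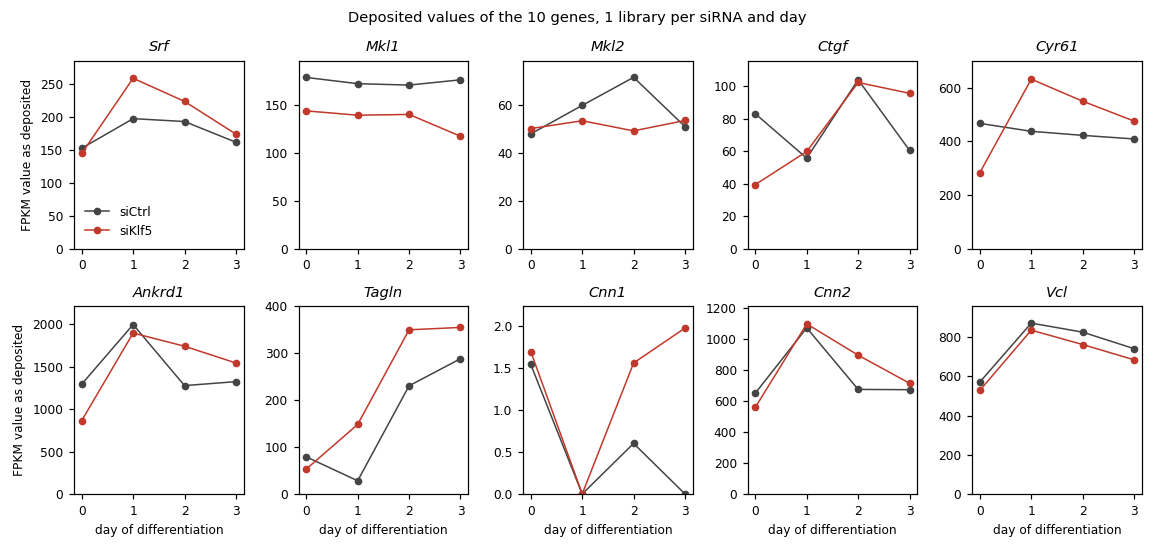
Deposited FPKM value (vertical axis, from 0) of each of the 10 genes against day of differentiation, with siCtrl in grey and siKlf5 in red; each point is 1 library, so there are no error bars. Mkl1 is lower in siKlf5 on every day, whereas Cyr61 and Ctgf start lower in siKlf5 on day 0 and end higher on day 3.

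The values of siKlf5 and siCtrl cells were compared on each day to ask whether these genes depend on Klf5. The differences of the pathway genes were mostly small, and they did not run in a common direction over the days. Mkl1 was lower in siKlf5 cells throughout. The secreted and nuclear targets Ctgf, Cyr61 and Ankrd1 were lower in siKlf5 cells on day 0 and no longer lower by day 3. Tagln was much higher in siKlf5 cells on day 1, the day on which its siCtrl value was lowest.

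Log2 ratios of siKlf5 to siCtrl are given on values to which 0.1 was added, with 95% exact (Clopper-Pearson) intervals on reads divided by 6. These intervals cover counting error only. Of the 9 expressed genes, 2 were past 1.5-fold lower in siKlf5 on day 0 (Ctgf and Cyr61) and none was past it higher, beside 11.1% and 9.22% of all 14312 expressed transcripts. On day 1 there were 0 lower and 1 higher (Tagln; all transcripts 11.0% and 16.4%), and on day 2 again 0 lower and 1 higher (Tagln; 13.0% and 7.69%). On day 3 Mkl1 was past the line lower (12.5%) and Ctgf higher (10.7%). Over days 0 to 3 the median ratio of the 9 genes was -0.31, 0.03, 0.21 and 0.11. Over all expressed transcripts it was 0.00, 0.03, -0.03 and 0.00.

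**Figure D2:**
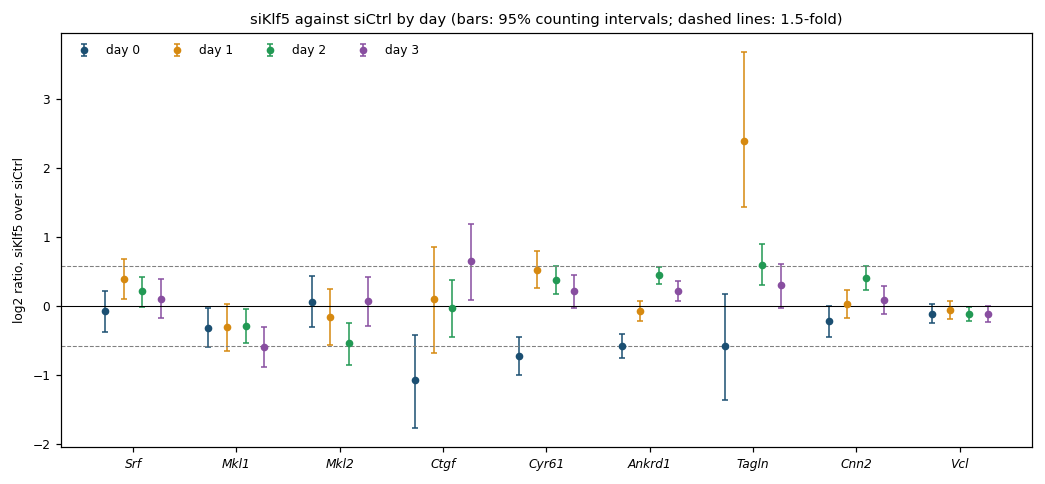
Log2 ratio of siKlf5 to siCtrl (vertical axis) for the 9 expressed genes on days 0 to 3 (colours), 1 pair of libraries per point; bars are 95% intervals for counting error only and dashed lines mark 1.5-fold. Tagln on day 1 (2.39) and Ctgf on day 0 (-1.07) lie farthest from 0.

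Among the regulators, Srf had values of 153, 198, 193 and 162 in siCtrl and 145, 259, 224 and 174 in siKlf5 cells on days 0 to 3. It was thus near its siCtrl level on day 0 and somewhat above it later, and the groups overlapped. The log2 ratios were -0.08, 0.39, 0.21 and 0.11, none past 1.5-fold, and only the day 1 interval (0.10 to 0.68) lay away from 0.

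Mkl1 varied little in siCtrl cells, at 178, 172, 170.5 and 176 on days 0 to 3. In siKlf5 cells it was 144, 139, 139.9 and 117. Every siKlf5 library lay below every siCtrl library, which held for 1.06% of all expressed transcripts. The log2 ratios were -0.31, -0.31, -0.28 and -0.59, and the day 3 value was at the 1.5-fold line, with an interval of -0.89 to -0.30. It crossed that line with the values as deposited, and not under a pseudocount of 1, median-ratio, upper-quartile or loess scaling.

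Mkl2, the related coactivator, was 47.8, 59.7, 71.3 and 50.8 in siCtrl and 50.02, 53.3, 49.1 and 53.4 in siKlf5 cells. The groups overlapped, and the siCtrl library of day 2 stood above the other 7. On that day the log2 ratio was -0.54 (interval -0.85 to -0.25). On the other days it was 0.07, -0.16 and 0.07, with intervals that include 0.

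Of the secreted targets, Ctgf, a matrix-associated growth factor, was 83.0, 55.7, 104 and 60.5 in siCtrl and 39.5, 59.8, 102 and 95.6 in siKlf5 cells. The siKlf5 library of day 0 was the lowest of the 8, and the siCtrl values went up and down between days. The log2 ratios were -1.07 (interval -1.77 to -0.42), 0.10, -0.02 and 0.66 (0.09 to 1.19). The day 2 value, near 0, was 0.02 after median-ratio scaling. Ctgf rested on 169 to 836 reads per library, the fewest of the expressed genes except Tagln.

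Cyr61, which like Ctgf belongs to the CCN family, was nearly level in siCtrl cells, at 467, 438, 422 and 409. In siKlf5 cells it was 284, 632, 549.8 and 476, so that the lowest and the 3 highest values of the 8 were all in siKlf5. The log2 ratios were -0.72 (interval -0.998 to -0.45), 0.53 (0.26 to 0.80), 0.38 (0.18 to 0.58) and 0.22 (-0.03 to 0.46).

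Ankrd1, a nuclear and sarcomeric protein of striated muscle, was 1294, 1996, 1277 and 1324 in siCtrl and 865, 1896, 1741 and 1543 in siKlf5 cells. The siKlf5 library of day 0 was again the lowest, and the other libraries overlapped. The log2 ratio of day 0 was -0.58 (interval -0.75 to -0.41), just inside the 1.5-fold line, which it crossed under median-ratio and loess scaling (both -0.59). The later ratios were -0.07, 0.45 (0.33 to 0.57) and 0.22 (0.08 to 0.36).

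Tagln, an actin-binding protein of smooth muscle that is also made in early skeletal muscle, showed the widest range, 12.6-fold between its lowest and highest library. Its values were 79.2, 28.2, 231 and 288 in siCtrl and 53.1, 148, 349.9 and 355 in siKlf5 cells. The siCtrl library of day 1 was the lowest of the 8, with 57 reads, and both siRNAs ended far above their day 0 level. The log2 ratios were -0.58 (interval -1.35 to 0.18), 2.39 (1.44 to 3.68), 0.60 (0.30 to 0.90) and 0.30 (-0.03 to 0.62).

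Cnn2, the calponin of non-muscle cells, was 651, 1072, 675 and 673 in siCtrl and 559, 1097, 895 and 714 in siKlf5 cells. Both day 1 libraries were above the others. The log2 ratio was -0.22, 0.03, 0.41 (interval 0.24 to 0.57) and 0.09 on days 0 to 3. On day 1 it was 0.03 as deposited and -0.03 under median-ratio scaling, so its sign on that day is not set.

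Vcl was 571, 872, 826 and 742 in siCtrl and 529, 836, 763 and 685 in siKlf5 cells. It was slightly lower in siKlf5 on every day, although the groups overlapped. The log2 ratios were -0.11, -0.06, -0.11 and -0.11, and only the day 2 interval (-0.21 to -0.02) lay away from 0.

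The order of the differences over the days was shared by several of these genes. Srf, Ctgf, Cyr61, Ankrd1, Tagln and Cnn2, 6 of the 9, had their lowest ratio of siKlf5 to siCtrl on day 0, beside 24.3% of all expressed transcripts. The same 6 were below siCtrl on day 0 and above it on day 3, beside 20.8%. Srf, Cyr61, Tagln and Cnn2 were below on day 0 and above on all later days, beside 5.74%. This group changed with scaling. Under median-ratio scaling the day 1 ratio of Cnn2 was -0.03 and the day 2 ratio of Ctgf 0.02. After loess scaling Ctgf joined the group, giving 5 of the 9 genes beside 6.32%. Mkl1 and Vcl were below on all 4 days, beside 9.03%. These counts rest on 1 library per point and on a shared pair of day 0 libraries, and several of the values in them have intervals that include 0.

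On day 2 the size of a ratio moved with abundance. For the 981 transcripts whose mean reached 500 or more the median ratio was 0.20 on that day, and 0.02, -0.05 and 0.03 on days 0, 1 and 3. Ankrd1 and Cnn2 belong to this range, and after loess scaling, which was added after seeing the data and removes such a trend, their day 2 ratios were 0.17 and 0.23 in place of 0.45 and 0.41. Vcl also became lower, from -0.11 to -0.28. The siCtrl library of day 2 held 20301495 reads and that of siKlf5 11808648, and at most 3 reads were kept per position. The part of depth and of this limit in the day 2 values was not tested.

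**Figure D3:**
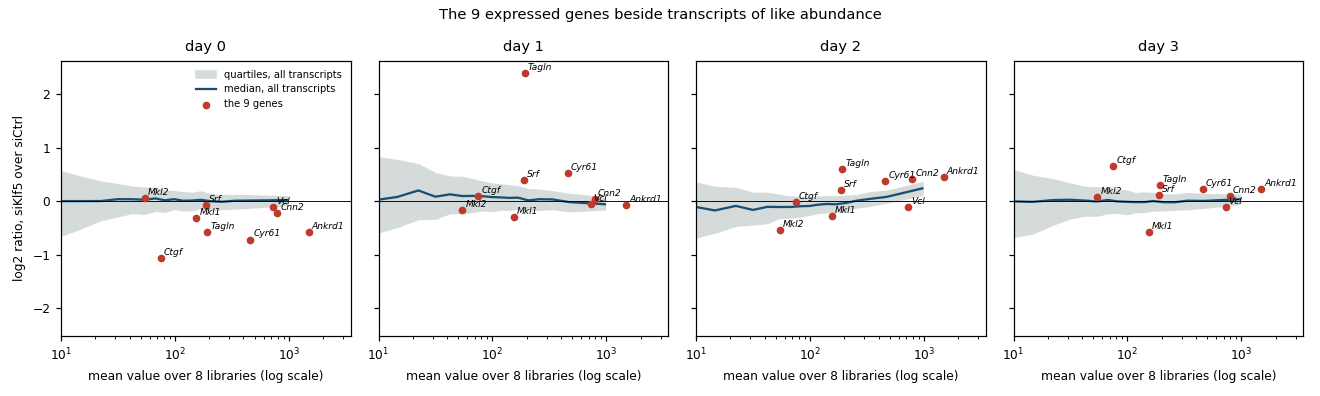
Log2 ratio of siKlf5 to siCtrl (vertical axis) against the mean value over the 8 libraries (log axis) on each day, with the median (line) and quartiles (band) of all expressed transcripts in 20 bins of abundance (shown from a mean of 10) and the 9 genes as red points. On day 2 the line rises for abundant transcripts, where Ankrd1 and Cnn2 lie.

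To test the siRNA effect over the 4 days, an additive model (siRNA plus day) was fitted with limma to all 14312 expressed transcripts. Its error is the deviation of the libraries from additivity, with 3 residual degrees of freedom, and not a replicate error. It called 0 of the 9 genes at an adjusted p (Benjamini-Hochberg) under 0.05. The background was also low, 9 transcripts in all, or 0.0629%, with 1374 at an unadjusted p under 0.05. Mkl1 was nearest, with a log2 difference of -0.37 (95% interval -0.59 to -0.16), lower in 4 of 4 pairs, an unadjusted p of 0.00397 and an adjusted p of 0.295 by limma. For Vcl the difference was -0.10 (-0.25 to 0.05) and for Srf 0.16 (-0.07 to 0.38). The intervals were wider for Tagln (0.68, -0.23 to 1.59), Ctgf (-0.08, -0.66 to 0.50) and Cyr61 (0.10, -0.33 to 0.53), whose differences turned sign between days. Ankrd1 (0.00, -0.35 to 0.36), Cnn2 (0.08, -0.16 to 0.32) and Mkl2 (-0.14, -0.51 to 0.23) completed the group.

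The same model gave the time course over both siRNAs. Srf, Vcl, Cnn2 and Ankrd1 rose from day 0 to day 1, and Vcl and Tagln were still above day 0 on day 3, whereas Mkl1 and Mkl2 were not called on any day. In all, 4 of the 9 genes rose on day 1 (6.82% of all transcripts rose), 3 on day 2 (11.5%) and 2 on day 3 (12.8%), and none fell (9.93, 11.6 and 17.6% of all transcripts fell). The median coefficient of the 9 genes was 0.53, 0.48 and 0.28 on days 1, 2 and 3, and that of all transcripts -0.09, -0.02 and -0.09.

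Vcl had the smallest error. By limma its coefficient was 0.64 on day 1 (adjusted p = 0.00393), 0.53 on day 2 (0.00609) and 0.37 on day 3 (0.0193), and it was called in each of the 9 settings tried. Srf rose by 0.61 on day 1 (adjusted p = 0.0223) and 0.48 on day 2 (0.0389), and its day 3 coefficient was 0.18 (0.381). The day 2 call of Srf ended with no siRNA term (adjusted p = 0.0606 by limma). Cnn2 rose by 0.85 on day 1 (adjusted p = 0.00759) and Ankrd1 by 0.88 (0.0304).
Tagln was called later, at 2.13 on day 2 (adjusted p = 0.0286 by limma) and 2.30 on day 3 (0.0166). Its day 1 coefficient was -0.01, with a 95% interval of -1.29 to 1.28. That coefficient averages changes of -1.49 in siCtrl and 1.48 in siKlf5, and so describes neither course. With no filter on low values the calls of Srf, Cnn2, Ankrd1 and Tagln were lost (adjusted p 0.117 to 0.285 by limma).
Markers of fibroblasts were read over the same days. The list was Pdgfra, Thy1, Dcn, Col1a1 and Lum, of which 4 were expressed. Col1a1, Dcn and Lum rose on each of days 1, 2 and 3, beside 6.82, 11.5 and 12.8% of all transcripts. The other expressed marker was not called on any day. Dcn rose by 2.52, 3.05 and 3.203 (adjusted p 4.76e-05, 9.27e-06 and 5.37e-06 by limma), and the list median was 1.80, 2.49 and 2.65. Of the 3 expressed smooth muscle markers, Lmod1 rose on all 3 days and Smtn on days 2 and 3, by 0.48 and 0.46 (adjusted p 0.0114 and 0.00972 by limma). The cultures are of a single line, and Smtn and Lmod1 are also in the list of other cytoskeletal Srf targets. The relation of these markers to the rises of Tagln, Cnn2 and Vcl was not tested.

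**Figure D4:**
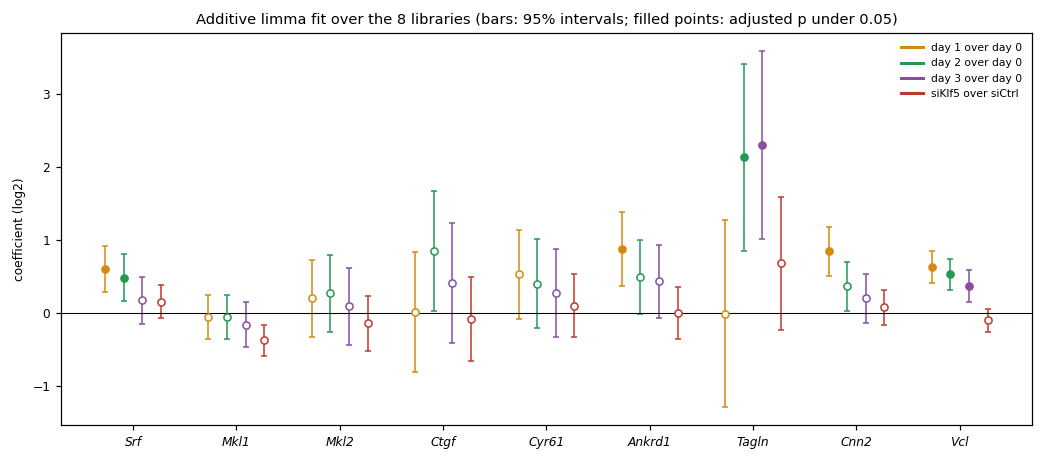
Coefficients of the additive limma fit over the 8 libraries (vertical axis, log2) for the 9 expressed genes, for days 1, 2 and 3 over day 0 and for siKlf5 over siCtrl (colours); bars are 95% intervals and filled points have an adjusted p under 0.05. Filled points are day coefficients of Srf, Ankrd1, Tagln, Cnn2 and Vcl, and no siKlf5 coefficient is filled.

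Within each siRNA the course differed most for Cyr61, Ctgf and Tagln. From day 0 to day 1, 3 of the 9 genes were past 1.5-fold higher in siCtrl (Ankrd1, Cnn2 and Vcl, beside 15.4% of transcripts) and 1 was past it lower (Tagln, beside 22.8%). In siKlf5 cells 7 were past it higher (18.2%), all but Mkl1 and Mkl2, and none lower (19.8%). From day 0 to day 2 there was 1 higher in siCtrl (Tagln, 22.9%) and 6 in siKlf5 (21.3%), and to day 3 there was 1 (Tagln, 22.5%) and 4 (Ctgf, Cyr61, Ankrd1 and Tagln, 21.7%). None of the 9 was past it lower from day 0 to day 2 or day 3 (all transcripts 18.1 and 23.5% in siCtrl and 20.2 and 23.6% in siKlf5). All these ratios share the 2 day 0 libraries, on which 6 of the genes had their lowest ratio of siKlf5 to siCtrl. The difference between the courses was not tested, since no condition has a replicate.

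For Cyr61 the log2 change from day 0 was -0.09 (0.05 after median-ratio scaling), -0.14 and -0.19 on days 1, 2 and 3 in siCtrl, with intervals that include 0, and 1.15, 0.95 and 0.74 in siKlf5. For Tagln the day 1 change was -1.49 (interval -2.80 to -0.51) in siCtrl and 1.48 (0.77 to 2.23) in siKlf5. Vcl ran alike under both siRNAs, with changes of 0.61, 0.53 and 0.38 on days 1 to 3 in siCtrl and 0.66, 0.53 and 0.37 in siKlf5.

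The wider pathway was described with lists of genes written from general knowledge. Of 4 other expressed Srf cofactors, Mamstr, a Myocd relative that coactivates Mef2 and Srf, was past 1.5-fold higher on days 0, 2 and 3. Of all transcripts, 9.22, 7.69 and 10.7% were past it higher on those days. The other 3 cofactors were within it on every day. Mamstr was 21.8, 65.9, 64.7 and 41.6 in siCtrl and 33.3, 77.9, 113 and 124 in siKlf5 cells. The siKlf5 library was above the siCtrl library on every day, and the day 3 log2 ratio was 1.57 (interval 0.95 to 2.21). The ternary complex factors Elk1, Elk3 and Elk4, the growth-factor partners of Srf, had day 3 ratios of -0.37, -0.30 and -0.12. Over the 4 days the additive fit gave Mamstr a difference of 0.80 with an adjusted p of 0.320 by limma. Myocd itself, the Srf cofactor of smooth muscle, was at or below 2.49.

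Of the 30 other cytoskeletal targets of Srf, 22 were below siCtrl on day 0, when the median ratio of all transcripts was 0.00. On that day 2 were past 1.5-fold lower (Actg2 and Lmod1), beside 11.1% of all transcripts. On day 1 Actg2 was past it higher (all transcripts 16.4%). None was past it on day 2, beside 13.0% lower and 7.69% higher, or on day 3, beside 12.5% and 10.7%. Their median ratio was -0.08, 0.07, 0.12 and 0.03 (0.12 on day 2 was -0.02 after loess scaling). Actg2, a smooth muscle actin, followed the course of Tagln in siKlf5 and siCtrl on days 0 and 1. It was 39.8, 26.3, 79.9 and 56.9 in siCtrl and 14.2, 73.0, 72.2 and 45.8 in siKlf5 cells, with ratios of -1.48 on day 0 (interval -3.42 to -0.13) and 1.47 on day 1 (0.24 to 3.01). On day 3 the highest ratios of the list were those of Myl9 (0.32), a myosin light chain, Pdlim7 (0.25) and Tgfb1i1 (0.16). The lowest were those of Mylk (-0.42), the kinase of that light chain, Lima1 (-0.34) and Actg2 (-0.31).

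During differentiation the same list rose more often than it fell. On day 1, 10 of the 30 rose and none fell, beside 6.82 and 9.93% of all transcripts. On day 2, 11 rose and 4 fell (11.5 and 11.6%), and on day 3, 11 rose and 5 fell (12.8 and 17.6%). The list medians were 0.38, 0.20 and 0.05. Acta2, an actin of smooth and early skeletal muscle, rose by 1.56 on day 1 (adjusted p = 0.000621 by limma) and the tropomyosin Tpm2 by 1.51 (0.000461). Flna, an actin crosslinker, fell by 0.55 on day 3 (0.00600). With no filter, 3 rose on day 1, 6 on day 2 and 7 on day 3, and 3 fell, all on day 3.

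Srf also drives immediate early genes, together with the Elk factors. Of 7, 2 were past 1.5-fold lower on day 0 (Egr2, listed at 0 in siKlf5, and Egr3), and 3 higher on day 1 (Egr1, Egr2 and Fos) with 1 lower (Fosb), beside 11.1% of all transcripts lower on day 0 and 16.4% higher and 11.0% lower on day 1. On days 2 and 3 Fos alone was past it, lower both times, beside 13.0 and 12.5% of all transcripts. The day 3 ratios were -0.59 for Fos, -0.11 for Egr3, -0.08 for Junb, -0.03 for Ier2, 0.16 for Egr1 and 0.26 for Egr2. Egr1, a zinc-finger factor, was 178, 236, 455 and 422 in siCtrl and 131, 517, 556 and 472 in siKlf5 cells, a day 0 ratio of -0.45 (interval -0.79 to -0.11) and a day 1 ratio of 1.13 (0.86 to 1.42). Egr1, Egr3, Junb and Fos rose on each of days 1, 2 and 3 over day 0 in the additive fit, and Egr2 on day 3. Of all transcripts, 6.82, 11.5 and 12.8% rose on those days. With no filter, 0 of the 7 were called on days 1 and 2 by limma and 2 on day 3.

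Among 19 expressed targets of Yap and Tead besides Ctgf, Cyr61 and Ankrd1, 2 were past 1.5-fold lower and 1 higher on day 0 (all transcripts 11.1 and 9.22%) and 0 lower and 5 higher on day 1 (11.0 and 16.4%), or 2 higher after loess scaling. There were 2 lower and 3 higher on day 2 (13.0 and 7.69%) and 1 lower and 2 higher on day 3 (12.5 and 10.7%). The median ratio lay between -0.07 and 0.07 on all days. Igfbp3, a secreted binding protein of insulin-like growth factors, was the highest on day 3, with a ratio of 1.76 (interval 0.71 to 2.98) from values of 12.0 and 40.8. Dock5 (0.59) and F3 (0.35), the initiator of blood clotting, came next, and Foxf2 (-0.67), Nuak2 (-0.54) and Nt5e (-0.46) were the lowest. On day 0, 13 of the 19 were below siCtrl, and the list median was -0.03 beside 0.00 for all transcripts. Ctgf and Cyr61 had ratios of -1.07 and -0.72 on that day. Whether they share a course with this list was not tested.

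**Figure D5:**
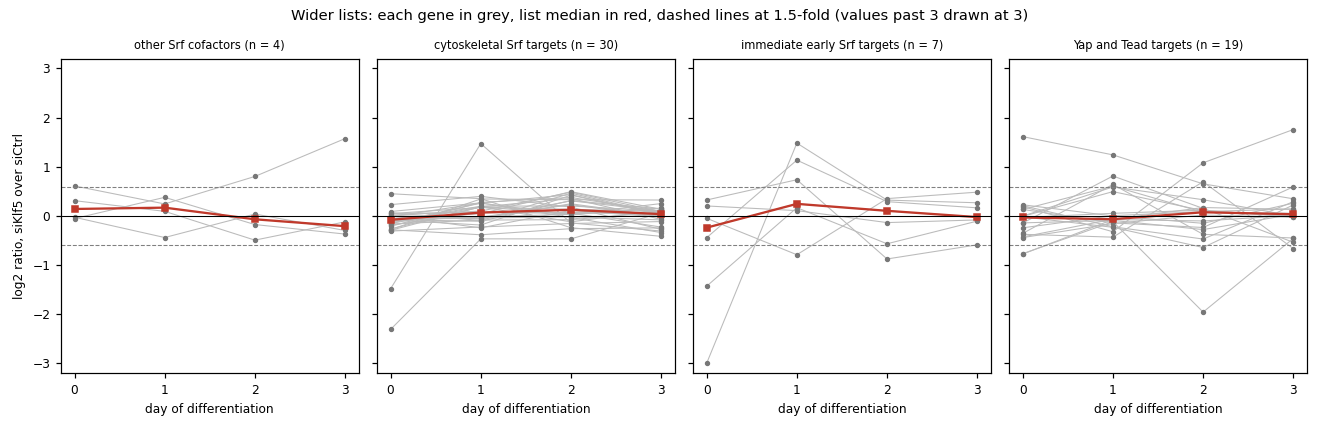
Log2 ratio of siKlf5 to siCtrl (vertical axis) by day for 4 lists of genes around Srf; grey lines are single genes, red lines the list medians and dashed lines 1.5-fold, with values past 3 drawn at 3. The medians stay between -0.24 and 0.24, and Mamstr and Igfbp3 are the highest lines of their lists on day 3.

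The nearest relatives of the 10 genes did not move as one with them. Of the CCN family, Nov was below siCtrl on all 4 days, at 22.6, 43.7, 161 and 154 in siCtrl and 11.4, 29.3, 96.0 and 85.9 in siKlf5 cells. Its additive difference was -0.79 (95% interval -1.12 to -0.45, adjusted p 0.173 by limma). Wisp1 had ratios of 0.03 to 0.18, Wisp2 was at 1.73 to 39.5, and Wisp3 was at or below 2.37. The Ankrd1 relatives Ankrd2 and Ankrd23 rose during differentiation far more than Ankrd1, by 5.25 and 2.64 on day 1 (adjusted p 7.20e-05 and 0.000635 by limma). With no filter the day 1 call of Ankrd23 was lost (adjusted p = 0.0596). Ankrd2 was lower in siKlf5 on day 1, with a ratio of -1.20 (interval -1.80 to -0.65), and Ankrd23 higher, at 0.61 (0.07 to 1.14). Cnn3 and Tagln2 stayed within -0.13 and 0.27 of siCtrl on every day, and Tagln2 fell by 0.67 on day 3 over day 0 (adjusted p = 0.00350 by limma). Tagln3 was at or below 4.72. Of the Vcl relatives, Ctnna1 had ratios of -0.08 to 0.15, and Ctnnal1 was higher in siKlf5 on day 1, at 0.79 (0.26 to 1.37).

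Because Tagln, Cnn1, Acta2 and Actg2 are also used as smooth muscle markers, markers of other cells were read beside them. Of 5 smooth muscle markers, Myh11, the defining myosin, was at or below 1.02 in every library. The summed value of the list was 339.7 to 507 in siCtrl and 277 to 421 in siKlf5 cells, and 3 of its members were above 1 in siCtrl and 1 to 3 in siKlf5. Smtn, which is also in the list of Srf targets, made up most of it, at 275 to 464. The fibroblast list summed to 275 to 1554 in siCtrl and 268 to 1390.3 in siKlf5, with 3 or 4 of 5 members above 1 and the lowest sums on day 0. The endothelial and blood list summed to 7.58 to 11.2 in siCtrl and 2.61 to 25.1 in siKlf5 cells, with Cd68 as the 1 member above 1, and Pecam1, Cdh5, Kdr and Ptprc at or below 0.826. The cultures are of a single line, and the relation of these markers to the values was not tested.

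Among themselves, the genes whose values ran most alike over the 8 libraries were Ankrd1 and Cnn2 (Pearson r of log2 values 0.93), Srf and Cnn2 (0.87), and Cyr61 and Ankrd1 (0.84). Mkl1 ran against Tagln (-0.39). The points share libraries, days and depth, so these are descriptions. Of the 11590 transcripts whose mean reached 10 or more, those most like Srf were Tgfb1i1 (0.97), a focal adhesion protein that was also in the list of cytoskeletal Srf targets, Rnaset2b (0.96) and Ilk (0.96). Tagln was most like Dcaf5, Acads and Ndufa7 (0.98 each), Mkl1 like Ngef (0.98), Mark3 (0.95) and Serpinb9 (0.94), and Vcl like S100a16 (0.98), Camk2g (0.97) and Fbxw9 (0.97). For Cyr61 they were Ccdc102a, 9230116L04Rik and Rpp38 (0.94 each), and for Ctgf Ell2 (0.97), Snx7 (0.96) and Igsf8 (0.94). For Ankrd1 they were Ndfip1 (0.98), Ptgis (0.98) and Nfu1 (0.96), for Cnn2 Eif4e2 (0.98), S100a6 (0.95) and Ptgis (0.95), and for Mkl2 Tacc1 (0.92), Cbx5 (0.90) and Tbl1xr1 (0.89).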

How the data were processed

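Paired-end poly(A) RNA-seq of C2C12 cells was analysed in 8 libraries. ChIP-seq (6 samples) was not analysed here. The authors aligned reads to mm9 with STAR and assigned them to exons of RefSeq transcripts with HOMER, on both strands and with at most 3 reads per position. They deposited FPKM values scaled to a total of 10000000. The 8 log2 columns they also deposited were not used.

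Reads were recovered from the step of low values, of which 99.96% or more came out whole within 0.1 in each library. Ratios used a pseudocount of 0.1 and a line of 1.5-fold. The additive fit used limma 3.58.1 (R 4.3.3) with trend, on log2 of the FPKM value plus 0.1, for transcripts with a mean of at least 1. The siRNA coefficient of this fit was tested on simulated data. Other steps ran in Python 3.11.15 (pandas 2.3.3, numpy 2.4.6, scipy 1.17.1, matplotlib 3.10.9) and had no such test. Alternatives were other pseudocounts, filters, scalings, fold lines, model terms and motif definitions.

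The genes and lists were chosen with earlier results of these data known. The rule named all 10 genes, up to 3 genes of each list with the highest and lowest day 3 ratio at a mean of at least 10, all listed relatives, and the 3 transcripts most correlated with each gene. Other list genes past 1.5-fold or called were named after their values were seen. Of the lists, 1 is not reported here.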

Additional observations from a re-analysis of the deposited data

Results flagged for a closer look

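A pair of conditions was flagged where its values lay on opposite sides of 0 and both 95% counting intervals lay away from 0. Such a pair was found for 4 of the genes. The ratios of siKlf5 to siCtrl for Srf, Mkl2, Tagln and Cnn2 also changed sign between days, but not with intervals away from 0 on both sides. The difference between the conditions of a pair was not tested, since each has 1 library. The log2 ratio of siKlf5 to siCtrl for Ctgf was -1.07 on day 0 and 0.66 on day 3. For Cyr61 it was -0.72 on day 0 and 0.53 on day 1, and for Ankrd1 -0.58 on day 0 and 0.45 on day 2 (0.17 after loess scaling). The log2 change of Tagln from day 0 to day 1 was -1.49 in siCtrl and 1.48 in siKlf5 cells. That both intervals lay away from 0 was the rule by which these pairs were picked, so it is no further result. The share of all transcripts with such a pair was not counted.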

How the results depend on the processing

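Of the alternative values of single-day ratios of the 9 genes, 619 stayed within the counting interval of the main value and 11 moved. Of those that moved, 8 were under loess scaling, which was added after seeing the data. The 619 include the other filters, which cannot change such a ratio, and the other pseudocounts, which change it little at the values of these genes. The 619 is therefore not a measure of how firm the ratios are. Of those of the additive fit, 322 kept their side of the threshold, 7 lost the call and 4 gained it.

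With a 2-fold line in place of 1.5-fold, the number of transcripts past it between siKlf5 and siCtrl was 1761, 2224, 1666 and 1962 on days 0 to 3 (2915, 3917, 2957 and 3328 at 1.5-fold), and the number of the 9 genes was 1 on day 0 and 0 on days 2 and 3. From day 0 to days 1, 2 and 3 it was 3135, 3366 and 4035 transcripts in siCtrl and 3179, 3455 and 3913 in siKlf5, with 1 of the genes on day 1 in siCtrl and 3, 3 and 2 in siKlf5. With no filter 5019, 5253 and 5422 transcripts were past 1.5-fold between siRNAs on days 0, 2 and 3, and with a mean of at least 5 there were 1744, 1689 and 2061. With no filter 2 of the genes, Cnn1 included, were past it between siRNAs on day 2, and 2 in siCtrl on days 2 and 3. Between siRNAs on day 3, 1 of the genes was past it with a pseudocount of 1 and under median-ratio, upper-quartile and loess scaling. On day 0, 3 were past it under median-ratio and loess scaling, Ankrd1 being the third. In siCtrl 2 were past it on day 2 under those 3 scalings, and 2 on day 1 under loess scaling.

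In the additive fit the siRNA called 9 transcripts, and 0 with no filter, 14 under loess scaling, 1 with no day term, 0 in limma without trend and 0 to 0 with each day left out in turn. None of the 9 genes was called for the siRNA in any of these settings. With no filter the days called 653, 1206 and 2161 transcripts (2397, 3307 and 4347 with the filter) and 1 of the genes, Vcl, on each day. Under loess scaling 5 of the genes were called on day 2 and 4 on day 3, beside 3481 and 4352 of all 14312 transcripts. The cause of these shifts was not tested. The day pairs the siRNAs and is a term of the fit, so that the 1 call with no day term is the value without that pairing. Depth limits Cnn1, which no library showed above its counting limit, and Tagln in siCtrl cells on day 1, which rests on 57 reads.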
